A study of Mus musculus with 15 samples.

Results

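The genes described here are the mouse Kcn genes, which encode the pore-forming and accessory subunits of potassium channels. They were taken by symbol: every gene in the deposited tables whose name begins with Kcn and a further letter, leaving out the non-coding Kcnd3os and Kcnq1ot1. This gave 50 of 15258 genes. Of these, 24 had enough reads to be tested, and 26 did not. The filter asked for 15 reads over all libraries and for 2.95 reads per M reads, equal to 10 reads at median depth, in 5 or more of them. The tested members were 7 of 15 voltage-gated channel genes, both silent modifiers, 4 of 11 accessory subunits, 6 of 11 inward rectifiers, 3 of 6 two-pore-domain channels and 2 of 5 calcium- or sodium-activated channels.

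The samples were left ventricles of male C57BL/6NRj mice, profiled by BRB-seq, an assay that tags the RNA of each sample with a barcode and counts the 3′ ends of its transcripts. There were 3 groups of 5 libraries: sham surgery with saline (sham), transverse aortic constriction with saline (TAC saline), and transverse aortic constriction with neuregulin-1β, which the labels shorten to NRG (TAC NRG). Constriction narrows the aorta and loads the left ventricle with pressure, and neuregulin-1β is a growth factor that acts on ERBB receptors of heart muscle cells. Saline or neuregulin was given by minipump, and no sham group received neuregulin, so its comparison was made only under constriction. Nothing in the labels says whether the libraries are separate animals. The p-values therefore measure only the spread between these samples, which may be technical.

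Potassium channels carry the outward currents that end each action potential and hold the resting potential of the heart muscle cell. In the mouse ventricle the fast transient outward current flows through channels of Kcnd subunits with the helper protein KChIP2, which Kcnip2 encodes. A slower repolarising current uses Kcna5, and the inward rectifiers set the resting potential or couple it to acetylcholine and to ATP. Lower transcript levels of several of these subunits are a known feature of hypertrophied and failing hearts.

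Levels are in CPM, computed as 2 to the power of the deposited log2 value, over 1000, and so carry the authors' scaling. Levels of a gene are compared across libraries. Where the log2 level of a gene is subtracted from that of another within a library, only the shift of that contrast across libraries is read. The order of genes by reads or mean CPM served only to describe depth and to choose the genes named. Differences are log2 differences with their standard error (SE), and adjusted p-values come from limma with Benjamini-Hochberg adjustment over 11018 genes, with a threshold of 0.05. Libraries held 2.02 to 5.62 M reads, and the group means were 3.60 ± 0.555 M (sham), 3.42 ± 0.406 M (TAC saline) and 3.33 ± 1.45 M (TAC NRG; SD, n = 5 each). The 7 ventricular muscle markers summed to between 43603 and 60588 CPM in every library, and the atrial markers Myl7 and Myl4 to between 2.02 and 5.69 CPM. TAC NRG 4 and 5 were the shallowest libraries, with 2.02 and 2.13 M reads, and they had the highest blood marker sums, at 2870 and 2683 CPM against 744 to 1791 in the other 13. For 5 Kcn genes that fell in TAC NRG against sham, and for Kcnh2, Kcna5, Kcng2 and Kcnd3, the outcome without these libraries is also given.

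**Figure D1:**
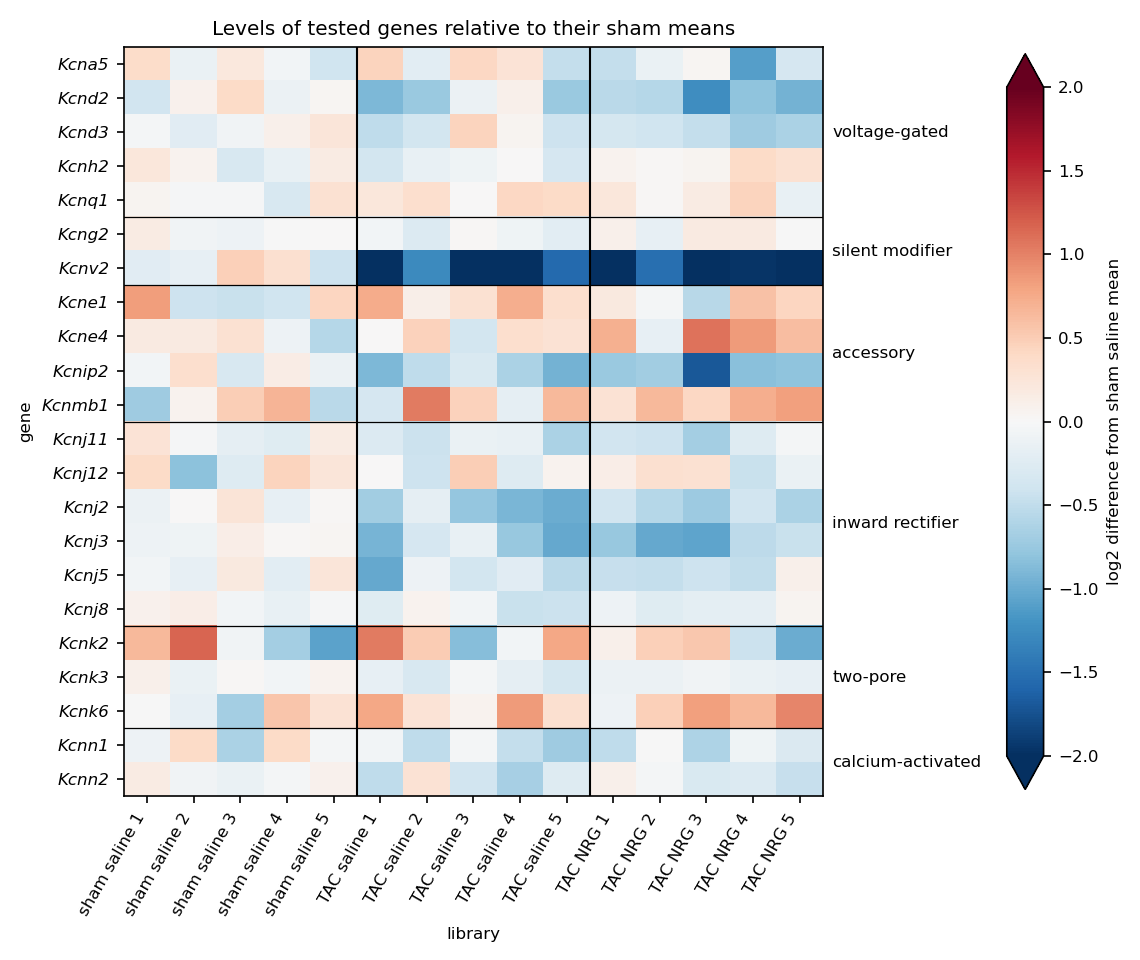
Heat map of 22 of the 24 tested Kcn genes (rows, by role) in the 15 libraries (columns, by group), coloured by the log2 level minus the gene's mean in sham, with colours ending at 2 log2 units either way. Kcnv2, Kcnip2, Kcnj2 and Kcnj3 are among the genes below their sham means in all 10 libraries from constricted hearts, with Kcnv2 the furthest below. Most other genes vary by less than 1 log2 unit.

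Under constriction with saline, 4 of the 24 tested Kcn genes fell and 0 rose. The 4 were Kcnv2, Kcnip2, Kcnj2 and Kcnj3, which is 16.7% of the tested members. Of all genes tested in the same comparison, 4.24% fell, 6.47% rose and 10.7% were called in either direction. Kcnv2, Kcnj2 and Kcnj3 were lower without overlap between the groups (12.5% of members, against 3.68% of all genes), and 0 were higher without overlap (4.72% of all genes). Kcnv2 reached the filter level in 5 sham and 2 TAC saline libraries, so its place in these counts rests mainly on its level in sham. With the 4 called genes included, an unadjusted p under 0.05 was reached by 10 of 24 (41.7%, against 24.2% of all genes). The median log2 difference of the tested members was -0.20, and that of all genes was -0.01. With total reads as the only scaling these medians were -0.09 and 0.10, a shift of all genes, and the same 4 members were called. Because RNA came from whole tissue, fewer cells of a type and less RNA per cell cannot be told apart.

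The start regions of 3 of the 4 members that fell are shown because these members were called in the same direction in the same comparison. RefSeq start windows of 300 bases on GRCm38.p6, from 250 bases before to 50 bases after the start, were matched for 35 of the 50 members and 14 of the 24 tested. Each is printed 5′ to 3′ on the gene's own strand, with matches to a short motif in capitals. Kcnd2 is included because it fell in TAC NRG against sham. The windows are those of Kcnj2 (chr11:111065914-111066213, plus strand), Kcnj3 (chr2:55435720-55436019, plus strand), Kcnip2 (chr19:45816014-45816313, minus strand) and Kcnd2 (chr6:21215096-21215395, plus strand).
Kcnj2: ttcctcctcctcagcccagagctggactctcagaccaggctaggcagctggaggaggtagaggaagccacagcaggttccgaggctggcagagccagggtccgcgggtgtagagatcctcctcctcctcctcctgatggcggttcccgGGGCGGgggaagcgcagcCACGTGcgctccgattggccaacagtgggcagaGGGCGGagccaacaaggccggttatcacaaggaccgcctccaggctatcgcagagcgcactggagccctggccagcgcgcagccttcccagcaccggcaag
Kcnj3: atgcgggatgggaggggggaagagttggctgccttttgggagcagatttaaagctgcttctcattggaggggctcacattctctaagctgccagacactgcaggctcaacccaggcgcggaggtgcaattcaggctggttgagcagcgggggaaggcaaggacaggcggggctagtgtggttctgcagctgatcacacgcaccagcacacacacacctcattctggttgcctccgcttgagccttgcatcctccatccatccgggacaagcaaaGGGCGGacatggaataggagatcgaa
Kcnip2: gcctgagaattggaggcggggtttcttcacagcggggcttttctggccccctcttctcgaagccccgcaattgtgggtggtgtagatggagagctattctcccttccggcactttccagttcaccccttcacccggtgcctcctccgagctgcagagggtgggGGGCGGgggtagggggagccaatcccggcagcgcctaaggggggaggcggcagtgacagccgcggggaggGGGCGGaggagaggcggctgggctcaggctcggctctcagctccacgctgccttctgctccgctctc
Kcnd2: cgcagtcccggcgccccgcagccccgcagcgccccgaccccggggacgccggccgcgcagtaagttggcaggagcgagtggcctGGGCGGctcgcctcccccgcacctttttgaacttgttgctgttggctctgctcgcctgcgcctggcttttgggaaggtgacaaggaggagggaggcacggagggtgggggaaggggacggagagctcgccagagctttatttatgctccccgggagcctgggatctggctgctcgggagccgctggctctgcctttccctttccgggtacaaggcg
The motifs searched, on both strands, were the TATA box (TATAAA), the GC box (GGGCGG), an E-box (CACGTG) and a GATA motif (GATAAG), which do not overlap each other. The GC box was found in each of the printed windows: 2 matches each in Kcnj2 and Kcnip2 and 1 each in Kcnj3 and Kcnd2. It was found in 8 of the 14 tested members with a window and in 35.9% of all 32544 windows. The E-box was found once in Kcnj2, in 2 of the 14 members and in 7.17% of all windows. The GATA motif was found in 1 of the 14 and in 7.32% of all windows, and the TATA box in 0 of the 14 and in 13.6% of all windows. G and C made up 57.7% of the Kcnj3 window and 66.7% to 68.7% of the other three, against a median of 53.0% over all windows. These matches describe the letters of the windows only.

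Kcnv2 encodes a silent subunit, which forms no channel alone and alters the channels of other subunits when it joins them. In sham libraries 1 to 5 it stood at 7.00, 7.25, 11.3, 10.2 and 6.13 CPM. In TAC saline it stood at 1.59, 3.37, 1.56, 1.61 and 2.77 CPM, and in TAC NRG at 0.967, 2.87, 1.40, 2.09 and 1.99 CPM. Every library from a constricted heart was below every sham library, and the constricted groups overlapped each other. In TAC saline Kcnv2 fell by 1.98 ± 0.34 (SE) on the log2 scale, to a fold of 0.253 (limma, adjusted p = 0.000430). The reads behind these values were few: 20 to 35 per library in sham, against 4 to 13 in TAC saline and 3 to 16 in TAC NRG. It reached the filter level in 5 sham, 2 TAC saline and 0 TAC NRG libraries, so it entered the test mainly through sham. With 2 CPM added before the log its difference was -1.31, still past the threshold.

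The other silent modifier, Kcng2, was measured far more deeply. Its levels were 183, 155, 153, 162 and 165 CPM in sham. They were 157, 135, 165, 153 and 141 CPM in TAC saline, and 175, 146, 186, 184 and 162 CPM in TAC NRG. All 3 groups overlapped, and its difference in TAC saline was -0.12, with a 95% interval from -0.30 to 0.05 (limma, adjusted p = 0.392). Kcnv2 and Kcng2 thus gave separate intervals in the same libraries, although the difference between the genes was not itself tested.

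**Figure D2:**
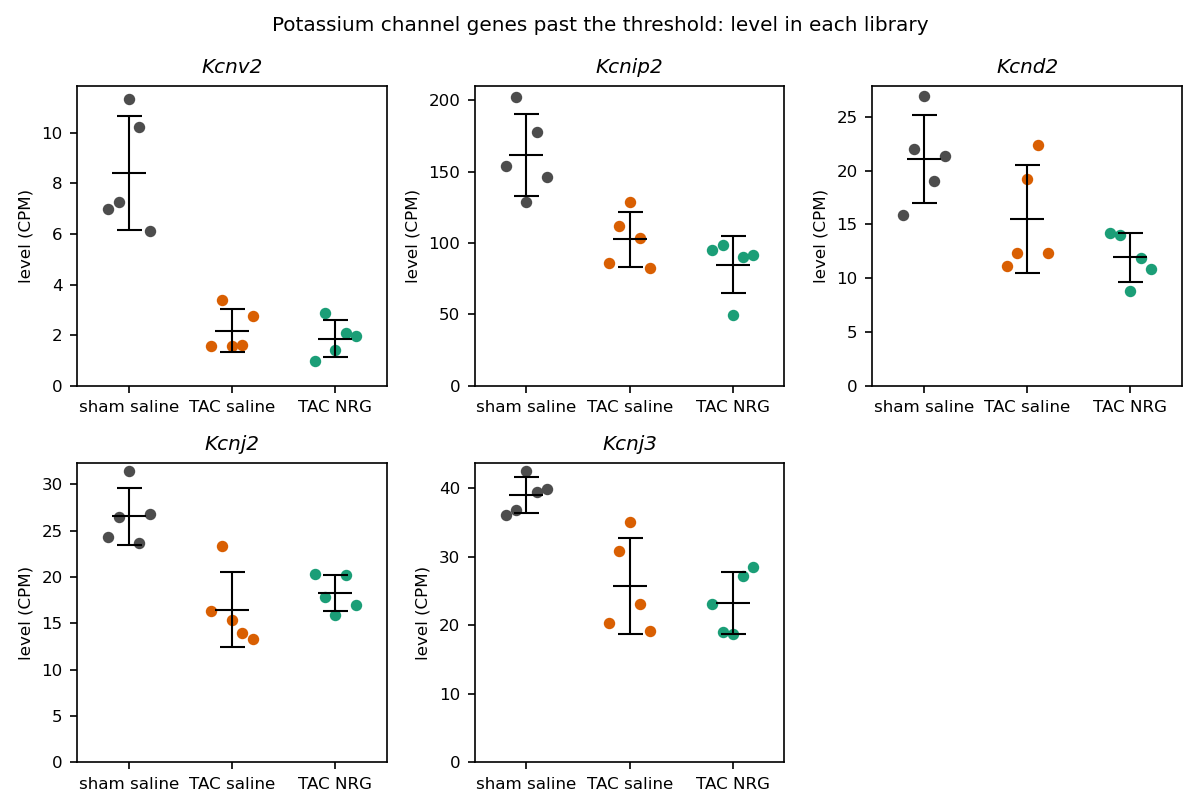
Levels (CPM, linear axes from 0) of 5 Kcn genes called in any comparison, with 1 point per library and bars for the mean and SD of the 5 libraries of each group. Sham lies above both constricted groups without overlap for Kcnv2, Kcnj2 and Kcnj3, while Kcnip2 and Kcnd2 overlap sham in TAC saline but not in TAC NRG.

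Kcnip2 encodes KChIP2, the calcium-binding helper that the Kcnd channels need for a full transient outward current. It stood at 154, 202, 128, 178 and 146 CPM in sham and at 85.7, 112, 129, 103 and 82.6 CPM in TAC saline. In TAC NRG it stood at 95.2, 98.4, 49.3, 89.9 and 91.7 CPM. The highest TAC saline library just exceeded the lowest sham library, and all 5 TAC NRG libraries were below sham. Kcnip2 fell by 0.66 ± 0.16 (SE) on the log2 scale in TAC saline, to a fold of 0.633 (limma, adjusted p = 0.00764).

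Kcnd2 and Kcnd3, the pore subunits that KChIP2 joins, did not pass the threshold in TAC saline. Kcnd2 stood at 15.9, 22.0, 27.0, 19.1 and 21.4 CPM in sham, and at 11.1, 12.4, 19.2, 22.4 and 12.4 CPM in TAC saline. Here 3 TAC saline libraries were below every sham library, while TAC saline 3 and 4 were within the sham range. The difference was -0.48 ± 0.19 (SE; limma, adjusted p = 0.111). Without TAC saline 4 it was -0.63 and passed (adjusted p = 0.0387 by limma). Kcnd2 passed in only 1 of 18 alternative settings, over which the limma adjusted p ran up to 0.284. Kcnd3 ranged from 6.20 to 8.53 CPM in sham and from 5.06 to 9.87 CPM in TAC saline, a difference of -0.16 with an interval from -0.59 to 0.27. Reads for Kcnd2 and Kcnd3 could be shared with transcripts that overlap them. Gm42583 (258 reads over all libraries) lies on the same strand as Kcnd2, where strand cannot separate them. Kcnd3 is overlapped by Gm43847 (75 reads) on its own strand and by Kcnd3os (21 reads) on the other. The sources used here do not say whether counting used strand. Kcna4, the pore subunit of the slow transient outward current, was not tested, with group means of 1.01, 1.50 and 1.64 CPM in sham, TAC saline and TAC NRG.

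The log2 level of Kcnip2 minus that of Kcnd2 in the same library was 2.94 ± 0.44 in sham, against 2.76 ± 0.36 in TAC saline and 2.81 ± 0.22 in TAC NRG (SD, n = 5 each). This within-library contrast, which depends on the length and 3′ ends of each transcript and so has meaning only across libraries, moved by less than its spread. The contrast of Kcnd2 with Kcnd3 was 1.52 ± 0.36, 1.20 ± 0.22 and 1.22 ± 0.27 in the same order.

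Among the delayed rectifiers, no gene passed the threshold in TAC saline. Kcna5, which carries a slow outward current of mouse atrium and ventricle, ranged from 13.3 to 22.6 CPM in sham and from 12.6 to 23.9 CPM in TAC saline. Kcnh2, the pore of the rapid delayed rectifier that is prominent in human heart, ranged from 33.0 to 48.6 CPM in sham and from 32.0 to 41.4 CPM in TAC saline. Kcnq1, the pore of the slow delayed rectifier, averaged 30.8 ± 4.76 CPM in sham against 37.0 ± 4.04 CPM in TAC saline, a difference of 0.27 ± 0.12 (SE; limma, adjusted p = 0.178). Kcnq1 lies opposite the antisense transcript Kcnq1ot1, which held 912 reads over all libraries, and the reads of the pair cannot be told apart if counting ignored strand. Kcne1, the accessory subunit of Kcnq1, averaged 5.84 ± 2.57 CPM in sham against 7.52 ± 1.46 CPM in TAC saline, and its interval ran from -0.10 to 0.99 log2 units.

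By role, the 6 tested inward rectifiers had log2 differences in TAC saline from -0.71 to -0.02, with a median of -0.39. The medians were -1.05 for the 2 silent modifiers, -0.33 for the 2 calcium- or sodium-activated genes and -0.19 for the 7 voltage-gated genes. They were 0.24 for the 4 accessory genes and 0.28 for the 3 two-pore-domain genes. The accessory and two-pore-domain medians rest partly on Kcne4, Kcnmb1, Kcnk2 and Kcnk6, which were close to the filter. Kcne4 reached the filter level in 0 sham, 3 TAC saline and 4 TAC NRG libraries. In the same order the counts were 2, 3 and 5 for Kcnmb1, 2, 4 and 4 for Kcnk6, and 2, 3 and 2 for Kcnk2. Kcne4, Kcnmb1 and Kcnk6 thus entered mainly through the constricted groups, where their means were higher, so these medians do not support a rise. In TAC NRG against sham the medians, in the same order of roles, were -0.35, -1.08, -0.25, -0.40, 0.35 and -0.06. The silent modifier median is in each comparison only the midpoint of Kcnv2 and Kcng2. Kcnv2 reached the filter level in 5 sham, 2 TAC saline and 0 TAC NRG libraries, so it entered mainly through sham, where it is high. The difference between roles was not tested.

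Kcnj2 encodes the main subunit of the inward rectifier that holds the resting potential of ventricular muscle cells. It stood at 24.3, 26.5, 31.4, 23.6 and 26.8 CPM in sham and at 16.3, 23.4, 15.4, 14.0 and 13.3 CPM in TAC saline. In TAC NRG it stood at 20.3, 17.8, 15.9, 20.2 and 17.0 CPM. Both constricted groups were below all sham libraries, although TAC saline 2 came close. Kcnj2 fell by 0.71 ± 0.14 (SE) on the log2 scale in TAC saline, to a fold of 0.611 (limma, adjusted p = 0.00202). Kcnj12, a second subunit of the same current, averaged 11.0 ± 3.53, 10.6 ± 2.64 and 10.9 ± 2.32 CPM in the 3 groups. Its difference in TAC saline was -0.02, with a 95% interval from -0.48 to 0.45. Within a library, Kcnj2 minus Kcnj12 was 1.34 ± 0.63 log2 units in sham, against 0.64 ± 0.57 in TAC saline and 0.76 ± 0.43 in TAC NRG (SD, n = 5 each).

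Kcnj3 and Kcnj5 encode the partners of the channel that acetylcholine opens through G proteins. Kcnj3 stood at 36.1, 36.8, 42.6, 39.5 and 39.9 CPM in sham, at 20.4, 30.9, 35.2, 23.1 and 19.1 CPM in TAC saline and at 23.1, 19.1, 18.7, 27.2 and 28.5 CPM in TAC NRG. Every constricted heart library was below every sham library, with TAC saline 3 the nearest. Kcnj3 fell by 0.64 ± 0.15 (SE) on the log2 scale in TAC saline, to a fold of 0.642 (limma, adjusted p = 0.00811). Kcnj5 stood at 28.4, 26.5, 34.0, 25.5 and 34.9 CPM in sham and at 14.6, 27.6, 23.0, 25.3 and 20.3 CPM in TAC saline. The groups overlapped, and its difference of -0.45 ± 0.16 (SE) did not pass (limma, adjusted p = 0.0643). It passed without TAC saline 2 (limma, adjusted p = 0.0334) and with only the 2 groups in the fit (limma, adjusted p = 0.0496). Kcnj5 passed in only these 2 of 18 alternative settings, over which the limma adjusted p ran up to 0.219. The channel of these partners is best known from atrium. The atrial markers Myl7 and Myl4 summed to between 2.02 and 5.69 CPM, and the listed marker Sln was not among the genes measured. The part of atrial tissue in the Kcnj3 and Kcnj5 values was not tested.

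Kcnj11 and Kcnj8 are the pores of channels that close when ATP is plentiful, mainly in muscle cells and in vessel cells respectively. Kcnj11 ranged from 55.4 to 79.5 CPM in sham and from 42.2 to 60.1 CPM in TAC saline, a difference of -0.32 ± 0.12 (SE; limma, adjusted p = 0.0981). Kcnj8 ranged from 46.2 to 56.1 CPM in sham and from 37.7 to 53.4 CPM in TAC saline, a difference of -0.22 ± 0.10 (SE; limma, adjusted p = 0.202). The sulfonylurea receptors that complete these channels are not Kcn genes, but both fell in TAC saline: Abcc9 from a mean of 137 to 97.0 CPM (-0.52 ± 0.12, SE; limma, adjusted p = 0.00638) and Abcc8 from 26.9 to 18.9 CPM (-0.53 ± 0.16, SE; limma, adjusted p = 0.0335). Pericyte markers, whose cells carry Kcnj8, summed to 315 to 392 CPM in sham and to 288 to 367 CPM in TAC saline, and their part in the Kcnj8 values was not tested.

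Abcc8 and Abcc9 belong to a list of 23 genes whose products bind, anchor or work beside potassium channels, of which 18 were tested. In TAC saline 4 of the 18 fell and 1 rose (4.24% and 6.47% of all genes), with a median of -0.20 against -0.01 for all genes. Dlg1, a scaffold for channels at the membrane, also fell. Actn2, the sarcomeric actinin to which channels are anchored, rose from a mean of 1137 to 1346 CPM (0.24 ± 0.07, SE; limma, adjusted p = 0.0218).

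Two-pore-domain channels leak potassium at rest. Kcnk3 stood at 286, 243, 271, 257 and 282 CPM in sham and at 239, 214, 260, 237 and 209 CPM in TAC saline, with overlap between the groups. Its difference was small and tightly measured, at -0.21 ± 0.07 (SE), and did not pass (limma, adjusted p = 0.0652). Leaving out sham 2 or TAC saline 3 moved it past the threshold, with adjusted p = 0.0494 and 0.0215 by limma. Kcnk3 passed in only these 2 of 18 alternative settings of the analysis. With total reads as the only scaling its difference was -0.10 (limma, adjusted p = 0.414). Kcnk2, a stretch-sensitive channel, averaged 2.56 ± 1.59 CPM in sham against 2.93 ± 1.30 CPM in TAC saline, and its interval from -0.66 to 1.22 was the widest of any member here. Kcnk2 held 141 reads over all libraries and is overlapped on its own strand by Pdcd5-ps (164 reads). On the other strand, Gm9899 (271 reads) overlaps Kcnk3 and D330025C20Rik (690 reads) overlaps Kcng2. The small-conductance calcium-activated channels Kcnn1 and Kcnn2 averaged 12.0 ± 3.24 and 14.3 ± 1.20 CPM in sham, against 9.18 ± 1.90 and 11.8 ± 3.27 CPM in TAC saline. Neither difference passed (limma, adjusted p = 0.288 and 0.271).

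Beside these differences, muscle and other cell markers also moved between sham and TAC saline. Of the 7 ventricular muscle markers, Ryr2 and Tnni3 fell and 0 rose, and their sum ranged from 54916 to 60588 CPM in sham and from 44753 to 57327 CPM in TAC saline. The fibroblast markers summed to 714 to 750 CPM in sham and to higher values of 795 to 1046 CPM in TAC saline, where Lum and Tcf21 rose. The macrophage markers Adgre1, C1qa and Cd68 rose (3 of 4), as did the pericyte marker Cspg4 (1 of 4) and the nerve marker Tubb3 (1 of 2 tested). None of the smooth muscle, endothelial, conduction, atrial and blood markers passed the threshold, and T cell markers were not analysed here. The share of reads from mitochondrial genes was 30.5% to 31.8% in sham and 26.0% to 29.6% in TAC saline. The part of these shifts in the levels of the Kcn genes was not tested. The 24 tested Kcn genes together took 1033 ± 36.4 reads per M in sham, against 920 ± 43.6 in TAC saline and 923 ± 33.2 in TAC NRG (SD, n = 5 each). The lowest sham library, at 993, was above the highest constricted heart library, at 971. These sums use total reads as the only scaling. They are carried by the members with most reads, such as Kcnk3, Kcng2 and Kcnip2, and Kcnip2 is itself a called gene. Whether sums over other genes separate in the same way was not tested.

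**Figure D3:**
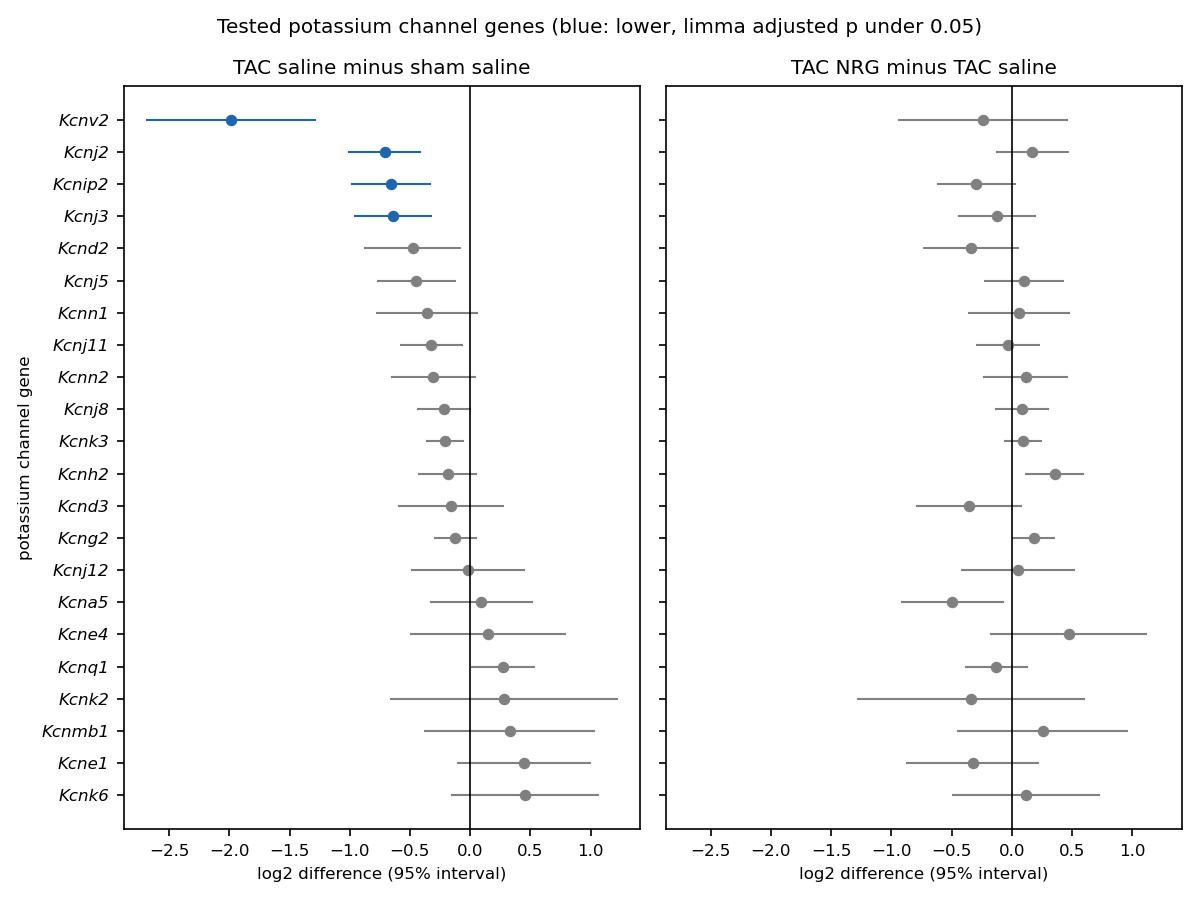
Log2 differences of 22 of the 24 tested Kcn genes with 95% confidence intervals (limma), for TAC saline minus sham on the left and TAC NRG minus TAC saline on the right, blue where lower with an adjusted p under 0.05. The 4 blue points are Kcnv2, Kcnj2, Kcnip2 and Kcnj3 on the left, and the right panel has none.

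Neuregulin under constriction was compared in TAC NRG against TAC saline. In this comparison 0 of the 24 tested Kcn genes were called by limma in either direction. The share over all genes was 1.30%, with 0.672% higher and 0.626% lower. The count was also 0 by limma voom on the recovered reads. An unadjusted p under 0.05 was reached by 5 members (20.8%, against 15.3% of all genes). Among them were Kcnh2, Kcna5 and Kcng2, whose 95% intervals excluded 0. The difference of Kcng2 was 0.18 ± 0.08 (SE), and 0.17 without TAC NRG 4 and 5. The differences of all 24 had a median of 0.06, and all genes had a median of -0.01. The median SE of these differences was 0.18, and the widest 95% interval, that of Kcnk2, ran from -1.28 to 0.60.

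Kcnh2 was the only member whose groups did not overlap in this comparison, which is 4.17% of the members against 1.81% of all genes that were higher without overlap. No member was lower without overlap, against 1.25% of all genes. It stood at 32.0, 37.1, 39.0, 41.4 and 32.8 CPM in TAC saline and at 43.3, 42.0, 42.9, 54.1 and 51.0 CPM in TAC NRG, all above TAC saline. The difference was 0.36 ± 0.12 (SE), with an interval from 0.12 to 0.59 (limma, unadjusted p = 0.00517, adjusted p = 0.127). The highest values came from TAC NRG 4 and 5, and without these libraries the difference was 0.24 (limma, adjusted p = 0.599).

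Kcna5, the slow outward current gene, stood at 23.9, 15.1, 23.4, 21.1 and 12.6 CPM in TAC saline and at 12.6, 15.9, 18.0, 8.13 and 13.9 CPM in TAC NRG, with overlap. Its difference was -0.49 ± 0.20 (SE; limma, adjusted p = 0.248), and -0.28 without TAC NRG 4 and 5.

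The 4 genes that fell under constriction gave these intervals for TAC NRG against TAC saline. That of Kcnj2 ran from -0.12 to 0.46, that of Kcnj3 from -0.44 to 0.19, that of Kcnip2 from -0.62 to 0.03 and that of Kcnv2 from -0.94 to 0.46. None excluded 0, and for Kcnv2 a change of nearly 1 log2 unit in the lower direction lies inside the interval. In the list of channel partners, 1 of 18 rose with neuregulin and 0 fell by limma (0.672% and 0.626% of all genes): Atp1b1, a sodium pump subunit, from a mean of 344 to 453 CPM (0.40 ± 0.07, SE; limma, adjusted p = 0.00295). The median of that list was 0.04, against -0.01 for all genes. Of the 7 ventricular muscle markers Tnnt2 rose and none fell, all 3 blood markers rose and the endothelial marker Cdh5 fell in this comparison. The blood sums were 806 to 1202 CPM in TAC saline and 1367 to 1681 CPM in TAC NRG 1 to 3, with TAC NRG 4 and 5 higher still. The part of these shifts in the values of the Kcn genes was not tested.

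TAC NRG against sham uses the sham libraries of the first comparison and the TAC NRG libraries of the second, so it is no independent support for either. Here 6 of 24 members fell, or 25.0%, against 7.39% of all genes that fell and 16.1% called in either direction, and 0 rose, against 8.74% of all genes. An unadjusted p under 0.05 was reached by 9 members (37.5%, against 28.9% of all genes). Among the 6 were Kcnv2 (-2.22 ± 0.34), Kcnip2 (-0.95 ± 0.16), Kcnd2 (-0.82 ± 0.19), Kcnj3 (-0.76 ± 0.15) and Kcnj2 (-0.54 ± 0.14), as log2 difference ± SE. Their limma adjusted p-values, in that order, were 6.28e-05, 0.000142, 0.00406, 0.00112 and 0.0109. In TAC saline against sham these 5 genes had -1.98, -0.66, -0.48, -0.64 and -0.71. For 6 members TAC NRG was lower without overlap (25.0%, against 5.45% of all genes), and for 0 it was higher without overlap (6.23% of all genes). The 6 lower ones were Kcnv2, Kcnip2, Kcnd2, Kcnd3, Kcnj3 and Kcnj2. Kcnv2 reached the filter level in 5 sham and 0 TAC NRG libraries, so its place in these counts rests on its level in sham.

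Kcnd2 stood at 14.2, 14.0, 8.79, 11.8 and 10.8 CPM in TAC NRG, all below the lowest sham library at 15.9. Kcnd3 stood at 5.67, 5.48, 5.22, 4.41 and 4.64 CPM there, below the lowest sham library at 6.20, but its difference of -0.51 ± 0.21 (SE) did not pass (limma, adjusted p = 0.0946), and was -0.41 without TAC NRG 4 and 5. The 5 genes named above as fallen also passed without TAC NRG 4 and 5. Kcnj11 was close to the threshold at -0.35 ± 0.12 (SE; limma, adjusted p = 0.0522). It passed in 7 of 19 alternative settings, over which the limma adjusted p ran from 0.0146 to 0.151. Of the channel partners, 3 of 18 rose and 5 fell against sham in TAC NRG (8.74% and 7.39% of all genes), with a median of -0.11 against -0.01 for all genes. In the same comparison 3 of 7 ventricular muscle markers fell (Myh6, Ryr2 and Tnni3) and 0 rose. The smooth muscle markers Cnn1 and Tagln, the fibroblast markers Dcn and Lum, the macrophage markers C1qa and Cd68, Cspg4, Tubb3 and all 3 blood markers rose, and the pericyte marker Rgs5 fell. The mitochondrial share of reads was 23.7% to 29.0% in TAC NRG. The part of these shifts in the Kcn genes that fell was not tested.

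**Figure D4:**
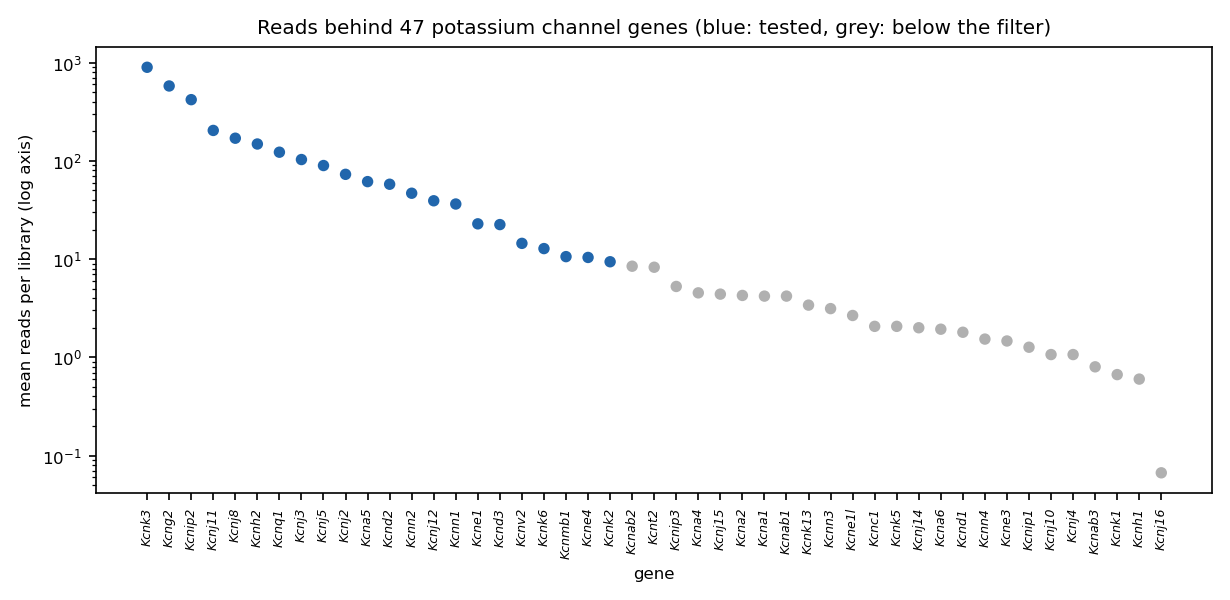
Mean reads per library (log axis) for 47 of the 50 Kcn genes (horizontal axis, in order of reads), blue where tested and grey where below the filter. The 25 grey genes hold 1 to 127 reads each over all 15 libraries, and every blue gene lies above them.

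The 26 members below the filter held 1109 reads over all 15 libraries, and the 24 tested members held 49605. Their totals ran from 1 read for Kcnj16 to 127 reads for Kcnab2, 6 of them had a read in every library, and the highest value in any library was 4.20 CPM. They include subunits best known from nerve cells (Kcna1, Kcna2, Kcnc1, Kcnh1), the beta subunits Kcnab1, Kcnab2 and Kcnab3, and the inward rectifiers Kcnj4, Kcnj10, Kcnj14, Kcnj15 and Kcnj16. Kcnj14, a further subunit of the resting inward rectifier, averaged 0.46, 0.95 and 0.70 CPM in sham, TAC saline and TAC NRG, and Kcnn3, a small-conductance channel, 0.56, 1.22 and 1.17 CPM. Kcnab2, a beta subunit of voltage-gated channels, averaged 1.54, 2.78 and 3.03 CPM. At such depths these values do not show that the channels are absent or unchanged. When no filter was used, Kcnj15 was past the threshold in TAC saline against sham (1.76 ± 0.51, SE; limma, adjusted p = 0.0325) on 1 to 5 reads per sham library and 2 to 12 per TAC saline library.

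The tested members closest to the filter were Kcnk2, Kcne4, Kcnk6 and Kcnmb1. They were named for their low reads, and their means in sham were 2.56, 2.50, 2.92 and 2.55 CPM. Kcne4, an accessory subunit that restrains Kcnq1 channels, reached the filter level in 0 sham, 3 TAC saline and 4 TAC NRG libraries and averaged 2.50 ± 0.549, 2.77 ± 0.585 and 3.91 ± 1.12 CPM. Kcnmb1, the beta subunit of the large calcium-activated channel of smooth muscle, averaged 2.55 ± 1.03, 3.17 ± 1.23 and 3.59 ± 0.538 CPM. It reached the filter level in 2 sham, 3 TAC saline and 5 TAC NRG libraries, and Kcnk6 in 2, 4 and 4. Smooth muscle markers summed to 134 to 277 CPM in sham, against 207 to 305 in TAC saline and 197 to 369 in TAC NRG, and their part in the Kcnmb1 values was not tested. None of these 4 members passed the threshold in any of the 3 comparisons by limma.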

How the data were processed

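Total RNA from frozen left ventricle was made into 3′-end BRB-seq libraries, per the labels' protocols. Reads were assigned on GRCm39, per the submitters' processing notes; which aligner and counter did this is not given in the sources used here. In the deposited files the authors give log2 of (reads + 0.5) times a factor for each library, as the spacing of the values shows. Undoing it gave whole reads (within 0.05) for 98.9% to 99.5% of values per library, and 100% of those under 1000 reads. No group held duplicate libraries.

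limma 3.58.1 (R 4.3.3; lmFit, eBayes with trend) was fitted to all 15 libraries on 11018 genes past the filter, two-sided. A run on simulated reads gave every gene the same spread, unlike real genes, so it is not used as support here. Tables and figures used Python 3.11.15, pandas 2.3.3, numpy 2.4.6 and matplotlib 3.10.9.

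Members, the partner list and the marker lists were chosen with earlier results of these data known. Named genes were every called member, Kcnv2, Kcnj2 and Kcnip2, the 10 highest by mean CPM, the tested genes of textbook currents, and those without overlap in either comparison with TAC saline; other names are given as untested or low members, or as chosen after their values were seen. Overlapping genes came from GENCODE vM21. A few genes are not reported here. Alternatives covered filter, scaling, pseudocount, voom weights, spread, groups fitted, replicate numbers and left-out libraries.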

Additional observations from a re-analysis of the deposited data

Results flagged for a closer look

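Among 60 groups of 5 libraries examined (the named Kcn genes in each group), 2 held a library far from the other 4, its gap to the nearest being over 0.71 of the whole range. Chance alone gives about 1 in 20 such groups. Kcnip2 stood at 49.3 CPM in TAC NRG 3, against 89.9 to 98.4 CPM in the other TAC NRG libraries, and the gap was 0.869 of the range. Without TAC NRG 3 its difference from sham was -0.77 and from TAC saline -0.11, against -0.95 and -0.29 with it. Kcnj5 stood at 31.6 CPM in TAC NRG 5, against 21.1 to 22.3 CPM in the others, and the gap was 0.868 of the range. Without TAC NRG 5 the difference of Kcnj5 from sham was -0.46 and passed the threshold (limma, adjusted p = 0.0449), against -0.35 with it. Kcnj5 passed in only 1 of 19 alternatives in that comparison.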

How the results depend on the processing

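The counts of called Kcn genes were 4, 0 and 6 in TAC saline against sham, TAC NRG against TAC saline and TAC NRG against sham. Leaving out each library in turn gave 4 to 5, 0 and 6 to 8, and every other alternative was within 1.5 times of these counts. The same 4 genes were called in TAC saline against sham in all alternatives, and the same 6 in TAC NRG against sham in all but the one without TAC NRG 4 and 5, where 5 of the 6 remained and Kcnj11 was gained (limma, adjusted p = 0.0146). With the replicate number as a replicate block the counts were again 4, 0 and 6. The numbers share no stated source, and same-numbered libraries of different groups had correlations of -0.25 to 0.08 after group means were removed, with 7 of 30 best matches between a library and another group being the same number.

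Of 1117 values of the 20 named genes under alternatives, 1103 stayed on their side of the threshold with the same sign or uncalled, 13 moved past it, 1 was lost and 0 called values changed sign, while 34 uncalled values did. With 2 CPM added before the log, Kcnv2 was -1.31 in TAC saline and -1.42 in TAC NRG against sham. Depth limits the low members: 10 reads in the median library is the floor of the test.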
